A study of Danio rerio with 6 samples.

Results

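The sodium pump (Na+/K+-ATPase) alpha subunits are the catalytic chains of the enzyme that moves sodium out of cells and potassium into them. Their genes were followed here in the adult zebrafish kidney. The members were the rows of the count table whose gene symbol matched 1 of 9 listed alpha subunit symbols. A match ignored case, or was to the symbol in capitals with its copy letter and any copy number dropped. They came to 9 of 31953 genes. The 6 described here carried the listed symbol itself and are the tandem alpha1 copies atp1a1a.2, atp1a1a.3, atp1a1a.4 and atp1a1a.5 and the alpha3 genes atp1a3a and atp1a3b.

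The data are 6 RNA-seq libraries from adult Tg(slc12a3:mCherry) zebrafish, a line in which the promoter of the sodium-chloride cotransporter gene drives a red reporter in the distal late (DL) segment of the nephron. The DL group holds 3 libraries from mCh+ segments dissected by hand out of the mesonephros, the kidney of adult fish. The rest group holds 3 libraries from the mCh- remainder of that organ, which contains the other nephron segments and blood-forming marrow. Both groups carry the transgene. The labels do not say whether libraries came from separate or pooled animals, or whether a DL and a rest library share a fish, and the spread behind each p-value may therefore be technical.

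The pump sits in the basolateral membrane of tubule cells, where it sets the sodium gradient that apical cotransporters and exchangers draw on. It works as a complex of an alpha subunit, a beta subunit needed to fold and deliver it to the membrane, and in many tissues a small FXYD protein that tunes its kinetics. Mammals have a single alpha1 gene for the kidney, whereas zebrafish carry a row of tandem alpha1 copies, and in zebrafish embryonic skin different copies are used by different types of ionocyte. In the RefSeq table for assembly GRCz12tu the copies atp1a1a.2, atp1a1a.3 and atp1a1a.5 stand next to each other in this order on chromosome 1, with 0 other protein-coding genes between neighbours, and atp1a1a.4 lies in the same row. The alpha3 genes lie on chromosomes of their own, atp1a3a on 19 and atp1a3b on 16.

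Total counts were between 9320756 and 22776825 in DL libraries and between 11109171 and 18329049 in rest libraries. In DL replicate 1 and rest replicate 3 the gene si:dkey-153m14.1 took 38.3% and 36.9% of all counts, against 2.70% and 3.17% in the other DL libraries and 1.50% and 10.13% in the other rest libraries. The scaling factors of those 2 libraries were 0.52 and 0.533, against 1.138 to 1.801 in the other 4. SLC12A3, the gene whose promoter drives the reporter, stood at 251, 905 and 32.9 CPM (counts scaled to a common library size) in the 3 DL libraries in replicate order. In the 3 rest ones it stood at 41.9, 30.4 and 43.0 CPM. The library with the label DL replicate 3 was therefore within the range of the rest libraries for the gene that marks the segment. Calls are therefore also given with that library left out, for the alpha genes and for each gene list. Without it SLC12A3 itself passed edgeR's test (log2 fold change 3.96, adjusted p = 0.0439). Because that library was left out for its low SLC12A3, this pass is no check of the dissection.

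In scaled CPM the 4 tandem copies atp1a1a.2, atp1a1a.3, atp1a1a.4 and atp1a1a.5 each stood higher in every DL library than in any rest library. Per total count atp1a1a.4 overlapped, with 2281 of 9320756 counts in DL replicate 3 against 5421 of 18329049 in rest replicate 1. The copy atp1a1a.3 averaged 1747 ± 1035 CPM in DL segments and 44.0 ± 34.5 CPM in rest libraries (SD over 3 libraries in each group). The copy atp1a1a.5 averaged 1657 ± 1115 CPM in DL segments and 50.3 ± 16.2 CPM in the rest. The gene atp1a3a, whose mammalian counterpart is the alpha subunit of neurons, had every DL library below every rest library in scaled CPM. Per total count it overlapped, with 373 of 22776825 counts in DL replicate 2 against 107 of 11109171 in rest replicate 3. In edgeR's quasi-likelihood test, adjusted over 17083 genes, 1 of the 6 genes passed 0.05, the higher atp1a1a.2, against 0.0644% of all genes tested that were called higher, and 0 were called lower, as over all genes. All 6 passed the filter on low counts. In bulk samples, more cells of a type and more RNA per cell cannot be told apart.

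**Figure D1:**
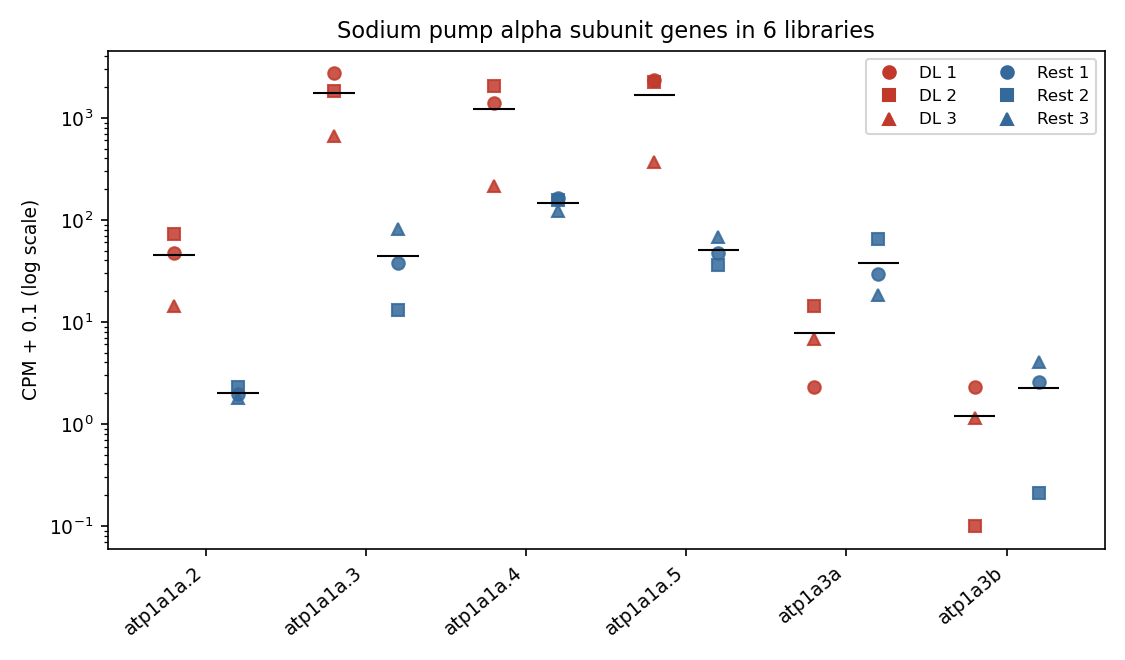
Level of each alpha subunit gene in every library, as CPM + 0.1 on a log scale, with DL libraries in red on the left of each pair and rest libraries in blue on the right, symbols for replicates 1 to 3 and a line at each group's mean. In scaled CPM the 4 tandem copies on the left separate the groups, with DL replicate 3 (triangle) the lowest DL library for each. In scaled CPM atp1a3a is lower in DL, though it passed no test, and atp1a3b overlaps. Per total count atp1a1a.4 and atp1a3a overlap.

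Within the tandem row, atp1a1a.3 had 2728, 1848 and 665 CPM in the DL libraries and 38.1, 12.8 and 81.0 CPM in the rest libraries, both in replicate order as in all values below. The lowest DL library was 8.21 times the highest rest library. Its log2 fold change of 5.32 ± 0.90 (SE) missed the threshold in edgeR's test (adjusted p = 0.0675) but passed in DESeq2 (adjusted p = 1.01e-12) and in limma-voom with quality weights (adjusted p = 0.029).

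The neighbouring copy atp1a1a.5 stood at 2361, 2239.5 and 372 CPM in DL, against 47.5, 35.6 and 67.8 CPM in the rest. Here too the groups did not overlap, with the lowest DL library at 5.49 times the highest rest library. Its log2 fold change was 5.04 ± 0.83 (edgeR adjusted p = 0.0675, DESeq2 7.53e-13, limma-voom 0.0344).

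The copy atp1a1a.4 stood at 1394, 2053 and 216 CPM in DL, against 165, 156 and 121 CPM in the rest. Its rest levels were close to each other and its margin was narrow, with DL replicate 3 at 1.31 times the highest rest library. The log2 fold change was 3.05 ± 0.78 (edgeR adjusted p = 0.245, DESeq2 0.000339, limma-voom 0.374).

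The copy atp1a1a.2 had far fewer counts, at 47.7, 73.1 and 14.1 CPM in DL, against 1.86, 2.22 and 1.69 CPM in the rest. In the rest libraries these values rested on 61, 41 and 10 counts. It was the member that passed edgeR's test, with a log2 fold change of 4.53 ± 0.67 (adjusted p = 0.0419, DESeq2 5.96e-09), but it missed the threshold in limma-voom (adjusted p = 0.117). Its rest libraries differed from each other by 1.31 times. Those of the copies that did not pass differed by 6.31 times for atp1a1a.3, 1.90 times for atp1a1a.5 and 1.37 times for atp1a1a.4. DL libraries differed by 5.19 times for atp1a1a.2, 4.10 times for atp1a1a.3, 6.35 times for atp1a1a.5 and 9.52 times for atp1a1a.4. The part of these spreads in the call was not tested.

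DESeq2 thus called 4 of the 6 genes higher, against 1.36% of all genes tested, and 0 lower, against 0.34%. In limma-voom 2 members were called higher, against 0.211%. At an unadjusted p under 0.05 edgeR had 4 members higher, against 4.09% of all genes, and 1 lower, against 2.73%. In scaled CPM groups did not overlap for 4 members with DL higher, against 6.82% of all genes, and for 1 with DL lower, against 6.28%. Without DL replicate 3, the lowest DL library for each of these copies, edgeR called all 4 tandem copies higher. They were atp1a1a.2 at 4.99 (adjusted p = 0.0101), atp1a1a.3 at 5.75 (0.0302), atp1a1a.4 at 3.58 (0.0453) and atp1a1a.5 at 5.56 (0.0118). Over all genes that fit called 51 of 18518 higher. Leaving out the lowest DL library raises these differences by itself. Without any 1 of the other 5 libraries, or with DL replicate 1 and rest replicate 3 both left out, edgeR called 0 of the 6. Over all genes each of those fits also called 0, higher or lower. In the fit without both DL replicate 1 and rest replicate 3 the log2 fold changes were 4.44, 5.64, 2.85 and 4.996 for atp1a1a.2 to atp1a1a.5.

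**Figure D2:**
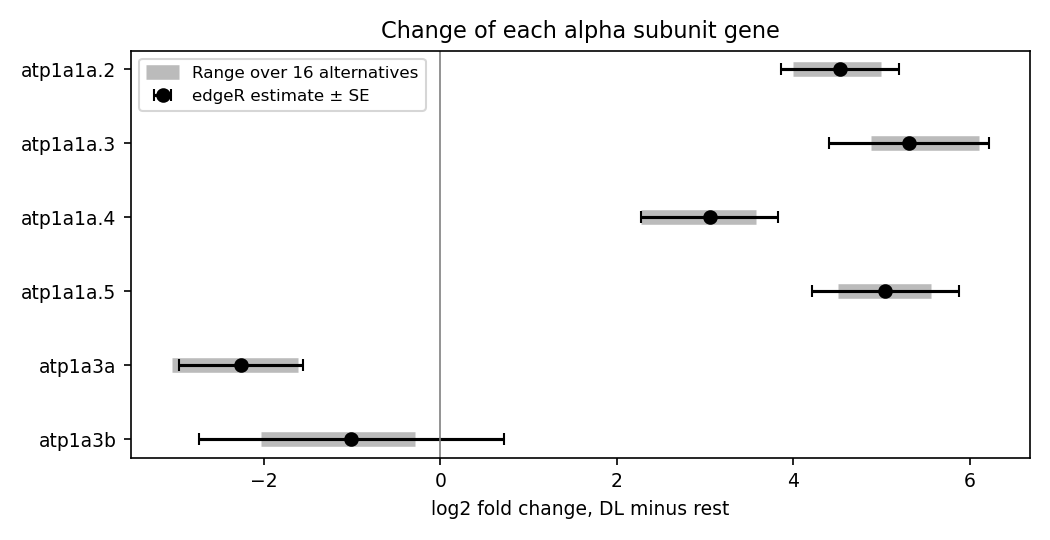
Log2 fold change (DL minus rest) of each alpha subunit gene by edgeR with its standard error, over a grey bar for the range over 16 alternative tools, scalings, filters and left-out libraries. Over these alternatives the 4 tandem copies run from 2.28 to 6.11 and atp1a3a from -3.05 to -1.61.

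The copy atp1a3a stood at 2.22, 14.1 and 6.71 CPM in DL, against 29.6, 64.3 and 18.1 CPM in the rest. In scaled CPM every DL library was below every rest library, though not per total count, as given above. The log2 fold change was -2.27 ± 0.70 (edgeR adjusted p = 0.398, DESeq2 0.0696, limma-voom 0.338). The other alpha3 copy, atp1a3b, was close to the detection limit at 2.22, 0 (after rounding) and 1.04 CPM in DL and 2.50, 0.108 and 3.90 CPM in the rest, with a log2 fold change of -1.01 ± 1.73. Neither passed any of the 3 tests.

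Summed markers of neurons were also at lower levels in the DL libraries. The 14 neuronal genes summed to 13.2, 5.75 and 25.9 CPM in DL, against 59.8, 41.3 and 50.2 CPM in the rest, without overlap in scaled CPM. Per total count DL replicate 3 stood above rest replicate 3, whose scaling factors were 1.138 and 0.533. All 8 tested ones had negative fold changes, with a median of -1.69, although edgeR called 0 of them, as over all genes called lower. DESeq2 called 2 of them lower, against 0.34% of all genes tested. The order within DL differed from that of atp1a3a, since DL replicate 2 had the lowest neuronal sum and the highest atp1a3a level of the 3. SNAP25_ENSDARG00000020609 had 0 counts in all DL libraries, against 65, 25 and 39 counts in the rest. The other SNAP25 entry, SNAP25_ENSDARG00000058117, had 8, 41 and 12 counts in DL, against 104, 41 and 32. STMN2_ENSDARG00000033234 had 0 counts in all DL libraries, against 97, 55 and 1 in the rest. The other STMN2 entry, STMN2_ENSDARG00000070537, overlapped in CPM, with 18, 82 and 1 counts in DL. SYT1, the most abundant of the list, also overlapped, at 13.8 CPM in DL replicate 3, against 15.6, 11.4 and 6.10 CPM in the rest. The neurofilament gene nefmb was at 0 counts in all DL libraries and had 2, 0 and 0 counts in the rest. ELAVL4, an RNA-binding protein of neurons, stood at 0, 0.0756 and 0.189 CPM in DL, against 5.94, 5.31 and 6.61 CPM in the rest. The part of neurons in the atp1a3a result was not tested.

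The 4 tandem copies together stood at 6529, 6214 and 1267 CPM in DL, against 252, 207 and 271 CPM in the rest. Every DL library was above every rest library, by 15.4-fold between the means on the log2 scale (a log2 difference of 3.94, or 4.72 without DL replicate 3), and the exact two-sided permutation test gave p = 0.1, the smallest that 3 against 3 libraries allow. The copies atp1a1a.3, atp1a1a.5 and atp1a1a.4 made up 38.5%, 36.3% and 24.3% of the difference in mean CPM, and atp1a1a.2 made up 0.972%.

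Summed to a single row before the edgeR fit, so that reads shared among these 4 would not matter, the 4 copies had a log2 fold change of 4.26 ± 0.84 (adjusted p = 0.111, DESeq2 2.16e-10, limma-voom 0.0372). Without DL replicate 3 the sum of the 4 copies passed in edgeR (4.75, adjusted p = 0.0437). This sum was chosen after the values were seen.

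The make-up of the counts of the 4 copies also differed between the groups, a measure that does not depend on the scaling between libraries. The shares are of counts and not of molecules, because no transcript lengths were used. The copy atp1a1a.4 took 21.3%, 33.0% and 17.0% of these counts in DL, against 65.4%, 75.5% and 44.5% in the rest. It was the most abundant of the 4 in each rest library and was below atp1a1a.5 in each DL library. The copy atp1a1a.5 took 36.2%, 36.0% and 29.4% in DL, against 18.8%, 17.2% and 25.0% in the rest. Neither share overlapped between the groups, DL replicate 3 included.

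The copy atp1a1a.3 took 41.8%, 29.7% and 52.5% of the counts of the 4 copies in DL, against 15.1%, 6.21% and 29.9% in the rest. Its share was lowest in DL replicate 2, just below that of rest replicate 3, so the groups overlapped. The copy atp1a1a.2 took between 0.730% and 1.18% in DL and between 0.625% and 1.07% in the rest, which also overlapped.

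The differences in share were -38.0 percentage points for atp1a1a.4 and 13.5 for atp1a1a.5, each with an exact two-sided permutation p of 0.1, the smallest possible, and 0.2 after Benjamini-Hochberg adjustment over the 4 shares. The difference was 24.3 points for atp1a1a.3 (exact permutation p = 0.2) and 0.195 points for atp1a1a.2 (exact permutation p = 0.3). The 4 shares sum to a fixed total in each library, so a lower share of atp1a1a.4 by itself raises the shares of the others. The higher share of atp1a1a.5 is therefore no separate result, and its ratio to atp1a1a.3, given below, overlapped between the groups. Over the 4 copies and 6 libraries, the widest 95% Wilson interval was that of atp1a1a.4 in rest replicate 3, from 42.1% to 47.0%. Reads without molecular identifiers are not independent molecules, so these intervals cover no more than counting error.

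**Figure D3:**
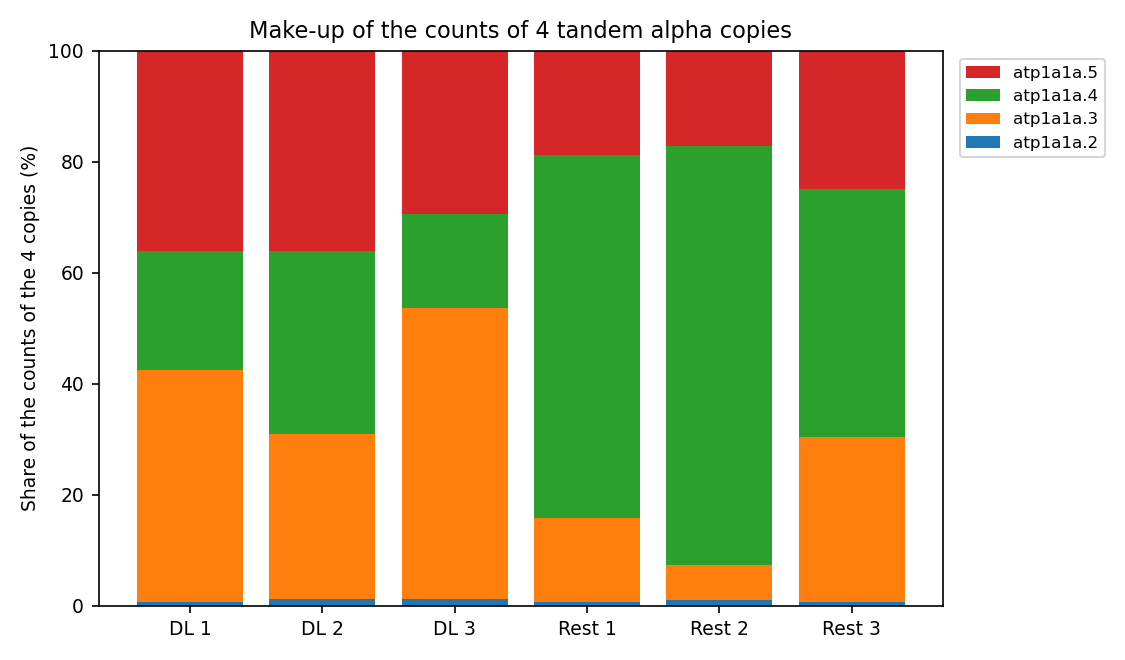
Share of each of 4 tandem alpha copies in their summed counts in each library, in percent, stacked to 100%, with DL replicates on the left and rest replicates on the right. The green atp1a1a.4 share is at most 33.0% in the DL libraries and at least 44.5% in the rest libraries, and the red atp1a1a.5 share is larger in DL. As the shares sum to 100%, these differences are not independent of each other.

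Ratios between copies within a library were also compared. The copy atp1a1a.3 had 1.96, 0.900 and 3.08 times the counts of atp1a1a.4 in DL, against 0.231, 0.0823 and 0.670 times in the rest. The ratio of atp1a1a.4 to atp1a1a.5 was 0.590, 0.917 and 0.580 in DL, against 3.47, 4.38 and 1.78 in the rest. The ratio of atp1a1a.3 to atp1a1a.5 overlapped, at 1.16, 0.825 and 1.79 in DL, against 0.801, 0.360 and 1.20 in the rest. Of the 6 ratios computed between copies, 3 did not overlap between groups (exact two-sided permutation p = 0.1 each, 0.2 adjusted over the 6). These 3 are the ratios with atp1a1a.4, so they restate its lower share in DL, and the other 3 overlapped.

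**Figure D4:**
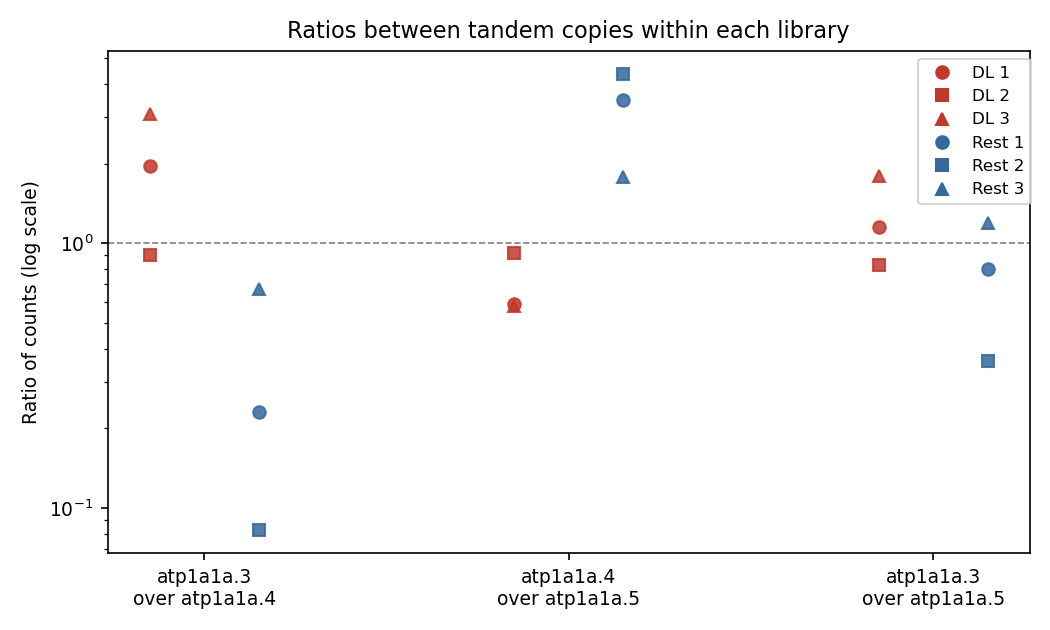
Ratios of counts between 3 tandem copies in the same library, on a log scale with a dashed line at 1, with DL libraries in red on the left and rest libraries in blue on the right. The groups separate for atp1a1a.3 over atp1a1a.4 and for atp1a1a.4 over atp1a1a.5, and overlap for atp1a1a.3 over atp1a1a.5.

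Copies of similar sequence can share reads, and their separate values are uncertain to that degree. How alike the sequences of these 4 copies are was not computed. The counts of atp1a1a.2 were 1.75%, 3.96% and 2.12% of those of its neighbour atp1a1a.3 in DL, against 4.88%, 17.3% and 2.09% in the rest. They were 2.02%, 3.26% and 3.79% of those of atp1a1a.5 in DL, against 3.91%, 6.23% and 2.50% in the rest. Both proportions overlapped between the groups. Against atp1a1a.4 the proportion was 3.42%, 3.56% and 6.53% in DL and 1.13%, 1.42% and 1.40% in the rest. Of the deposited values above 0 and below 1000, 8 of 10 for the 4 tandem copies and 9 of 11 for the alpha3 genes were not whole numbers, against 45.5% over all genes. In DL the tandem values below 1000 were only those of atp1a1a.2 in replicates 1 and 3. Larger values carry no decimals at 4 significant digits, so this says little about the tandem copies in DL. The part of shared reads in the atp1a1a.2 call was not tested.

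The beta and FXYD partners of the pump were measured alongside. ATP1B1_ENSDARG00000013144, a beta1 subunit gene, stood at 3793, 3939 and 1278 CPM in DL, against 482, 333 and 442 CPM in the rest. Its log2 fold change was 2.84 ± 0.70 (edgeR adjusted p = 0.219, DESeq2 1.24e-05, limma-voom 0.0399), and it took 96.6%, 98.1% and 96.9% of the counts of 6 beta genes in DL, against 88.6%, 82.2% and 92.9% in the rest. The 6 beta genes together stood at 3927, 4017 and 1318 CPM in DL, against 544, 406 and 476 CPM in the rest, without overlap and 5.83-fold apart between the means on the log2 scale (exact two-sided permutation p = 0.1).

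**Figure D5:**
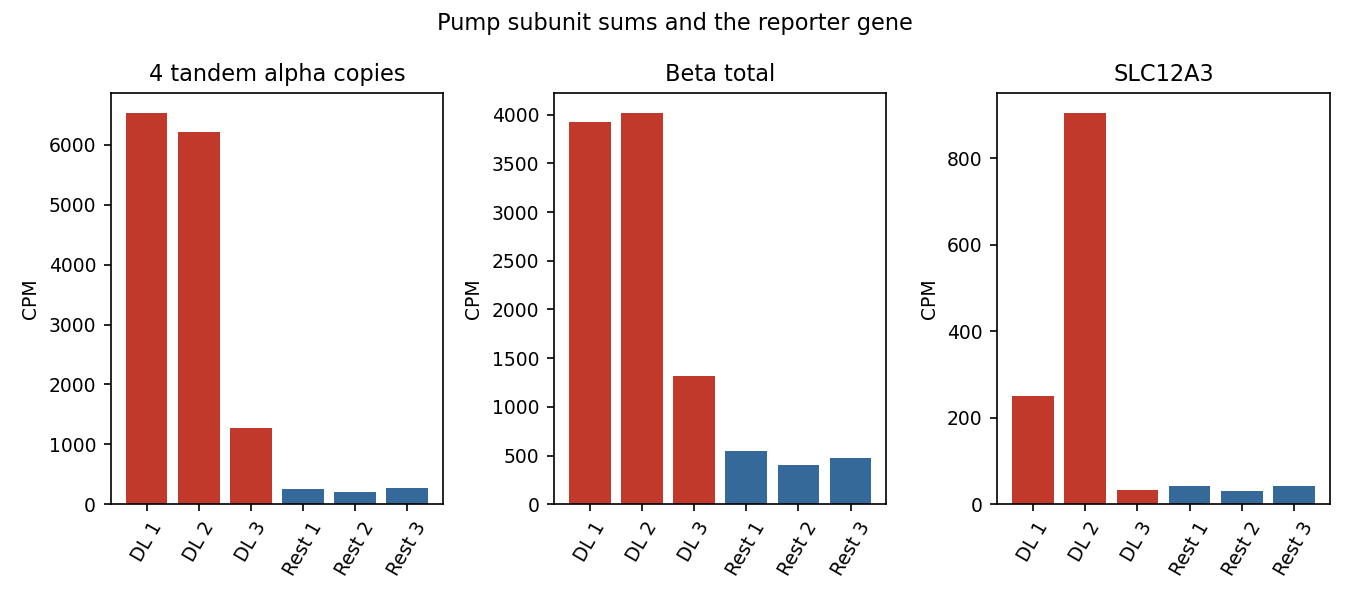
Summed CPM of 4 tandem alpha copies, summed CPM of 6 beta genes and the CPM of SLC12A3, whose promoter drives the reporter, in each library. DL libraries are in red on the left and rest libraries in blue on the right. DL replicate 3 has alpha and beta sums above all rest libraries (1267 and 1318 CPM) although its SLC12A3 level of 32.9 CPM lies among theirs.

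Of 16 partner genes matched, 12 were tested, and edgeR called 0 in either direction, against 0.0644% of all genes called higher and 0 called lower. Without DL replicate 3, where 13 were tested, edgeR also called 0, against 51 of 18518 genes higher and 2 lower. With all libraries it had 2 higher at an unadjusted p under 0.05, against 4.09% of all genes, and 1 lower, against 2.73%. DESeq2 and limma-voom each called 1 higher, ATP1B1_ENSDARG00000013144, against 1.36% and 0.211% of all genes, and 0 lower. The list's median log2 fold change was -0.09. The gamma subunit gene fxyd2, a pump regulator of the mammalian kidney, stood at 106, 277 and 69.3 CPM in DL, against 69.6, 26.8 and 26.1 CPM in the rest (log2 fold change 1.88 ± 0.62, edgeR adjusted p = 0.44). Its groups met at DL replicate 3 and rest replicate 1. Another FXYD gene, fxyd5, stood at 2.50, 6.43 and 3.12 CPM in DL, against 20.5, 16.6 and 4.57 CPM in the rest (-1.78 ± 0.72, edgeR adjusted p = 0.621).

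Among 17 genes listed as pump regulators, all tested, edgeR called 0, against 0.0644% of all genes called higher and 0 called lower. At an unadjusted p under 0.05 it had 2 higher, against 4.09% of all genes, and 0 lower, against 2.73%. DESeq2 called 2 higher, against 1.36% of all genes, and limma-voom 1 higher, against 0.211%. The median log2 fold change was 0.24. Without DL replicate 3 edgeR called 1 of them higher, esrrb, against 51 of 18518 genes tested in that fit. The nuclear receptor gene esrrb stood at 62.5, 48.6 and 16.7 CPM in DL, against 3.80, 1.19 and 1.02 CPM in the rest (4.35 ± 0.73, edgeR adjusted p = 0.0675). PPP1R1B, an inhibitor of protein phosphatase 1, stood at 75.2, 55.9 and 31.8 CPM in DL, against 5.17, 0.433 and 7.96 CPM in the rest (3.61 ± 0.84, edgeR adjusted p = 0.187). The kinase gene SGK2 overlapped, at 64.6, 143 and 66.2 CPM in DL, against 30.1, 66.6 and 37.3 CPM in the rest (1.03 ± 0.50, edgeR adjusted p = 0.768). Its relative sgk1, which corticosteroids induce, also overlapped, at 148, 319 and 273 CPM in DL, against 145, 147 and 192 CPM in the rest.

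Other P-type ATPases, the family of ion and lipid pumps to which the alpha subunits belong, were compared as well. Of 25 matched, 21 were tested, and edgeR called 0 in either direction, against 0.0644% of all genes called higher and 0 called lower. Without DL replicate 3, where 23 were tested, edgeR also called 0, against 51 of 18518 genes higher and 2 lower. With all libraries it had 1 higher at an unadjusted p under 0.05, against 4.09% of all genes, and 0 lower, against 2.73%. Groups did not overlap for 2 with DL higher, against 6.82% of all genes, and for 2 with DL lower, against 6.28%. The median log2 fold change of the list was 0.14, beside -0.07 over all genes tested. The lipid flippase gene ATP8A2 stood at 45.7, 27.1 and 15.2 CPM in DL, against 2.65, 2.38 and 10.17 CPM in the rest, and was the 1 gene of the list called by DESeq2 (log2 fold change 2.57, adjusted p = 0.0233), which called 1.36% of all genes higher. Another flippase gene, atp8a1, stood at 0.834, 3.099 and 2.84 CPM in DL, against 5.81, 5.58 and 7.96 CPM in the rest, without overlap (edgeR adjusted p = 0.845). ATP8B1 overlapped, at 18.5, 20.1 and 7.94 CPM in DL, against 7.58, 7.74 and 12.5 CPM in the rest. The calcium pump gene atp2b4, the most abundant of the list, overlapped at 131, 86.6 and 89.9 CPM in DL and 128, 122 and 111 CPM in the rest.

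A further list held sodium-coupled carriers, the slc12a7 cotransporter genes, and potassium and chloride channel genes. Of 27 matched, 19 were tested, and edgeR called 2 higher, against 0.0644% of all genes, and 0 lower, as over all genes. DESeq2 called 7 higher, against 1.36% of all genes, and 0 lower, against 0.34%. The median log2 fold change of the list was 0.74. Without DL replicate 3 edgeR called 3 of them higher, slc9a3.2, slc12a10.3 and SLC12A3, against 51 of 18518 genes tested in that fit. SLC12A3 is the gene for whose low level that library was left out. The sodium-proton exchanger gene slc9a3.2 and the cotransporter relative slc12a10.3 passed (adjusted p = 0.0419 each), and KCNJ15, a potassium channel gene, had a log2 fold change of 2.68 ± 0.57 (edgeR adjusted p = 0.146). In DL replicate 3, where SLC12A3 was at 32.9 CPM, slc9a3.2 stood at 249 CPM and slc12a10.3 at 355 CPM, against at most 28.3 and 44.6 CPM in the rest. Both were called with that library included, so their level there is no separate check of it. There slc9a3.1 stood at 48.4 CPM, against 21.2 to 67.5 CPM in the rest, and clcnk at 11.2 CPM, against at most 9.50. Groups did not overlap for 5 of the 19 with DL higher, against 6.82% of all genes, and for 1 with DL lower, against 6.28%.

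Markers of other cell types, those of the proximal tubule included, gave the context of each library. The 10 erythroid genes summed to 53.8, 51.9 and 749 CPM in DL, against 120, 663 and 394 CPM in the rest. The sum was highest in DL replicate 3, the lowest DL library for the 4 tandem alpha copies, and globin made up most of it, with hbaa1 at 427 CPM there, against at most 202 CPM in the rest. Of the 10 genes 3 were highest in DL replicate 3, 5 in rest replicate 2 and 2 in rest replicate 3. For example, the membrane skeleton gene epb41b stood at 89.9 CPM in DL replicate 3, against 267 CPM in rest replicate 2, and the transferrin receptor gene tfr1a at 22.9 CPM in DL replicate 3, against 56.2 CPM in rest replicate 2. The 14 neutrophil and macrophage genes summed to between 36.8 and 515 CPM in DL and between 137 and 1315 CPM in the rest. The 14 proximal tubule genes summed to between 801 and 884 CPM in DL and between 713 and 1763 CPM in the rest. Of 12 genes of skin and gill ionocytes, foxi3b and ca15a had 0 counts in all 6 libraries and foxi3a stood below 1 CPM in each, whereas RHCG_ENSDARG00000100265, an ammonia channel gene, stood at 876, 533 and 181 CPM in DL, against 47.2, 8.83 and 17.1 CPM in the rest (edgeR adjusted p = 0.0846). It was the 1 ionocyte gene edgeR called without DL replicate 3, and 0 genes of the other marker lists given here were called in that fit. Over all genes the fit called 51 of 18518 higher and 2 lower. The 18 skeletal and heart muscle genes matched summed to between 54.8 and 119 CPM in DL and between 76.7 and 102 CPM in the rest. The 9 smooth muscle genes summed to between 220 and 377 CPM in DL and between 513 and 777 CPM in the rest. The part of these cell types in the differences of the alpha genes was not tested.

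Likeness over the 6 libraries was computed for atp1a1a.3, the highest in mean DL CPM, and for atp1a1a.2, the member that passed edgeR's test. The genes most like these copies were other genes with a gap between DL and rest. Over 2339 genes, Pearson's r of log2(CPM + 1) with atp1a1a.3 was highest for slc9a3.2 (0.995), mylk5 (0.991), ERBB3 (0.990), tmsb4x (0.989) and cldn3d (0.986). For tmsb4x, an actin-binding thymosin, this shape spanned little, from 298 to 329 CPM in DL and from 248 to 275 CPM in the rest. Over 2340 genes, r with atp1a1a.2 was highest for ATP1B1_ENSDARG00000013144 (0.986), TFAP2B (0.986), camsap3, ca4c and epha2b (0.985 each). Among the other alpha genes compared, r with atp1a1a.3 was 0.976 for atp1a1a.5 and 0.840 for atp1a1a.4. With atp1a1a.2 it was 0.985 for atp1a1a.5, 0.948 for atp1a1a.4 and 0.936 for atp1a1a.3. These values describe 6 libraries in 2 groups and carry mainly the gap between the groups.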

How the data were processed

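The table the authors deposited holds expected counts (estimated counts per gene) for 31953 Ensembl genes, many of them fractional, with 4 significant digits. Per the labels' protocols, the library kit was NuGEN's Ovation Single Cell RNA-seq System. For the aligner, counting tool, strand setting and genome build, the entry is: not given in the sources used here. Symbols came from a gene name table and matched 26121 genes. Columns were assigned to libraries by title, and replicate numbers follow deposition order.

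Counts were rounded, filtered with filterByExpr by group (17083 genes kept) and scaled by TMM. DL was compared with the rest by edgeR 4.0.16's quasi-likelihood F test (R 4.3.3, robust fit), with p adjusted over all genes by Benjamini-Hochberg at 0.05. Fold changes are DL minus rest, their standard error was taken from the fold change and F, and CPM is per TMM-scaled library. Shares, sums and ratios were compared by exact two-sided permutation over libraries. Alternatives were DESeq2 1.42.0, limma-voom (limma 3.58.1) with quality weights, thinning every library to the smallest, other scalings, other filters, removal of the 20 most abundant genes, and removal of libraries. The edgeR step was tested on simulated data.

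The members and lists were chosen with earlier results of these data known. For 3 of the 9 members and 1 marker list, results are not reported here, nor are the planned total, shares and ratio to the beta subunits that need those 3, so shares are over the 4 tandem copies. Named are the other 6 members, SLC12A3 and, from each list, members past the threshold or, if fewer than 3, the 3 with the smallest adjusted p. Marker lists are mostly given by their sums in place of the genes this rule takes. The genes sgk1, atp2b4, foxi3a, hbaa1, si:dkey-153m14.1 and the marker genes at 0 counts were named after their values were seen. So were SYT1, STMN2_ENSDARG00000070537, slc9a3.1 and clcnk. List members were matched by symbol ignoring case or, with the copy letter dropped, in capitals. For likeness, tested genes were compared if their mean log-CPM reached 5 and their symbol was no clone name, and the 5 highest are named.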

Additional observations from a re-analysis of the deposited data

How the results depend on the processing

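The number of alpha subunit genes called higher in DL was 1 in edgeR with all libraries, 4 in DESeq2, 2 in limma-voom with quality weights (atp1a1a.3 and atp1a1a.5), 4 without a low-count filter and 0 with library size as the only scaling. With 1 library left out it ranged from 0 to 4, and it was 0 with DL replicate 1 and rest replicate 3 both left out. None was called lower in any of the 16 alternatives. Over all genes edgeR called 11 higher and 0 lower, against 1 higher and 0 lower with library size only, 99 and 7 without a filter, 233 and 58 in DESeq2, 36 and 0 in limma-voom, 51 and 2 without DL replicate 3, and 0 of either without any 1 other library. With DL replicate 1 and rest replicate 3 both left out edgeR also called 0 of either. Library size as the only scaling moved the median log2 fold change of all genes from -0.07 to -0.50.

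The log2 fold changes of the 4 named tandem copies stayed positive and those of atp1a3a and atp1a3b negative under all 16 alternatives, with ranges of 3.99 to 4.99 for atp1a1a.2, 4.88 to 6.11 for atp1a1a.3, 2.28 to 3.58 for atp1a1a.4, 4.50 to 5.56 for atp1a1a.5 and -3.05 to -1.61 for atp1a3a. Neither atp1a3a nor atp1a3b passed in any alternative.

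The 4 tandem copies summed to 1 row passed in DESeq2 (4.28), limma-voom (3.76), without a filter (4.28) and without DL replicate 3 (4.75). With 1 library left out their log2 fold change ranged from 3.99 to 4.75, and over all 16 alternatives from 3.73 to 4.75. The shares among the 4 copies and their summed CPM kept their direction under all alternatives run, from -46.6 to -31.1 points for atp1a1a.4 and from 11.9 to 15.8 points for atp1a1a.5. The comparison per coding length was not run because no lengths were used, and limiting shares to members past the low-count filter changed nothing because all 4 passed. No paired analysis was possible because the labels give the libraries no shared number.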
